A study of Mus musculus with 4 samples.

Results

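Late myocytes are the muscle cells of this culture that had switched on the genes of the contractile apparatus to a high level, read here from Acta1 (skeletal muscle alpha-actin) and Myh3 (the embryonic myosin heavy chain). Late myocytes were chosen by measured levels in molecule counts per 1000000 (CPM) over the 4 files: at least 1000 for Malat1 (a nuclear RNA), at least 1500 for Myog (myogenin), at least 5000 for Acta1 and Myh3 together, and under 75 for Mki67 and Top2a together, which are genes of dividing cells. These limits chose 873 of 5481 kept cells, a share of 15.9% (exact binomial 95% interval 15.0% to 16.9%). The same limits without Acta1 and Myh3 held 1759 non-dividing Myog-high cells, of which the late myocytes were 49.6% and the other 886 cells served for comparison. Because measured levels chose the members, every difference between these classes is a description, and none was tested.

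The cells came from skeletal muscle of MyoD-KI mice. Muscle stem cells were kept for 5 days in growth medium with fetal bovine serum and Ultroser, and those with high MyoD-tdTomato signal were sorted, per the labels. All cells therefore share the knock-in genotype, the culture and the sort, and cells with low signal were not analysed here. The 4 files, labelled replicates 1 to 4, make up the only group.

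Muscle stem cells that activate become dividing myoblasts, and on leaving the cell cycle they turn on Myog and become myocytes. Myocytes then fuse into multinucleated fibres and build sarcomeres, in which myosin thick filaments pull on actin thin filaments anchored at the Z-disc. In developing and regenerating muscle the embryonic and neonatal forms of these proteins come before the adult ones.

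The files held 5985 barcodes, of which 5944 were in all 4 files, and any pair of files shared 5946 to 5965. The stated load was about 10000 cells. The files were therefore counted as repeat libraries of 1 set of cells, so that n = 1 and their spread is technical. Filters on genes and mitochondrial share left out 463 barcodes. The files held 62627341 to 68898900 molecule counts (UMIs) each, and late myocytes were read at a median depth of 12179 UMIs (3085 genes) in each file, against 10170 UMIs (3010 genes) for comparison cells. Mitochondrial genes took a median of 4.10% and 4.04% of UMIs. Scrublet, a doublet caller, marked 0 cells, so its calls could not be used here. How well its scores rank doublets in these cells was not tested. Of late myocytes, 2.29% were among the 5% of kept cells with the highest doublet scores, against 3.84% of comparison cells. Leaving those highest-scoring cells out gave 421 higher and 501 lower genes in the comparison described below, against 419 and 503.

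The choice of members was close to the same in each file taken alone. The rule found 832, 818, 828 and 824 members in files 1 to 4, and these included 88.5% to 92.3% of the 873. At the threshold of 5000 CPM the nearest member had 5025 and the nearest cell outside had 4993. Within 10% of that threshold lay 49 members and 66 cells below it. Another 30 cells failed only the Myog limit, 49 only the limit on Mki67 and Top2a, and 38 only the Malat1 limit.

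The 5 genes that mark the class were present in nearly every member, which for Acta1 and Myh3 the rule itself largely required. The plot of levels in single Myog-high cells shows these rule genes as a sum, and Actc1, Myl4 and Mef2c singly. Acta1 and Myh3 together ran from 5025 through a median of 9705 to 31203 CPM per cell. Their proportion was not fixed: Myh3 supplied from 0% through a median of 20.7% to 69.1% of their combined UMIs, and 11 members had no Myh3 UMI in any file. Across the 873 cells, Acta1 in files 1 and 2 had a Spearman correlation of 0.25 with Myh3 in files 3 and 4, a description over cells that share their libraries.

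Of the markers that the rule did not use, Actc1 (cardiac alpha-actin, also made by young skeletal muscle) ran from 0 through a median of 4194 to 20391 CPM per late myocyte, and 3 members had none. The median in comparison cells was 809 CPM. Myl4 (the embryonic and atrial myosin light chain) had a median of 2247 CPM against 342, and Mef2c (a transcription factor of muscle differentiation) had 1416 against 165. Each of the 3 overlapped between the classes, since the highest comparison cells reached 15776 CPM of Actc1, 6315 of Myl4 and 4835 of Mef2c. After thinning to 5000 UMIs per file, 96.2% of 857 late myocytes had an Actc1 UMI, 97.2% a Myl4 UMI and 95.3% a Mef2c UMI in a file. In dividing Myog-low cells, where free RNA and the cells' own transcripts cannot be told apart, the shares were 15.8%, 11.1% and 8.48% of 1235 cells, at a median depth of 12643 UMIs. Without thinning, the shares in late myocytes were 97.8%, 99.1% and 98.1%.

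**Figure D1:**
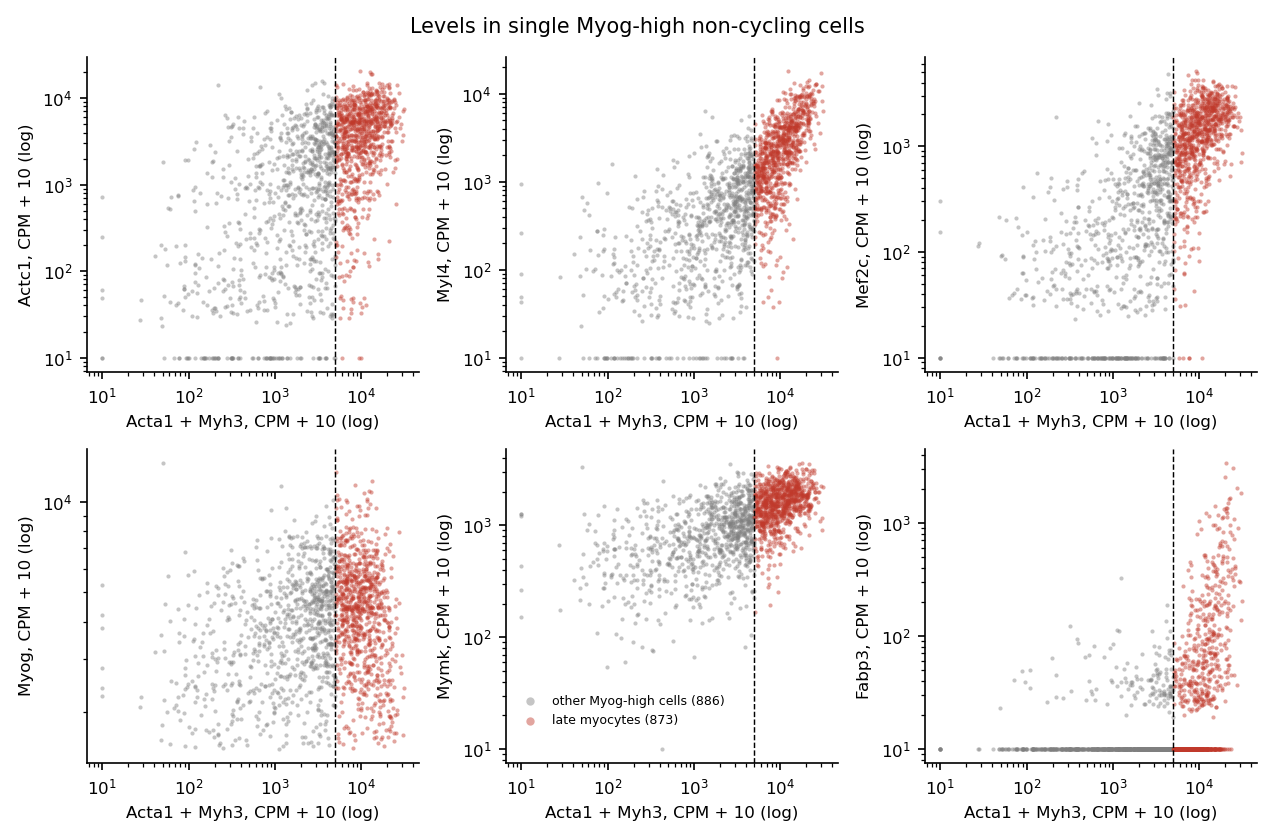
Levels of 6 genes (vertical axes, CPM + 10, log scale) against Acta1 and Myh3 together (horizontal axes, CPM + 10, log scale) in single Myog-high non-dividing cells. Each point is 1 cell, red for the 873 late myocytes and grey for the 886 comparison cells, with the threshold dashed. Myl4 and Mef2c climb with Acta1 and Myh3, and Fabp3 is at 0 in 425 late myocytes and reaches 3386 CPM in the highest one. Myog, which the rule held to at least 1500 CPM in both classes, spreads over a similar span above that limit.

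Most markers of other cell types were near 0, and their part in the results was not tested. The 7 fibroblast markers summed to 4.17 CPM in late myocytes (3.64 to 5.21 over the files) and 10.7 in comparison cells, with Lum, Dpt and Col15a1 at 0 in late myocytes and Ly6a giving 3.91. Endothelial markers summed to 1.40 CPM (1.29 to 1.52), immune markers to 0.672 (0.517 to 0.948) and erythroid markers to 0.377 (0.284 to 0.530). The cardiomyocyte markers summed to 5.10 CPM (4.74 to 5.99), with Nppa, Nppb, Myl7 and Nkx2-5 at 0. Pericyte and smooth muscle markers summed to 48.4 CPM (46.5 to 50.2), of which Abcc9 gave 32.9 and Notch3 4.76, and Pdgfrb, a defining marker, was at 0.198 CPM. Adipocyte markers summed to 22.6 CPM (22.1 to 23.2), of which Pparg gave 21.8 (10.0 in comparison cells, a log2 ratio of 1.05), with Adipoq and Lep at 0. Neural markers summed to 12.3 CPM (11.1 to 13.0), with Sox10 at 0.

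To see what else distinguished late myocytes, UMIs were summed over the cells of each class in each file. The log2 ratio of CPM + 1, late over comparison cells, was averaged over the 4 files. Of 10431 genes with a mean of at least 50 UMIs per file, 419 (4.02%) were higher, by a log2 ratio of 1 or more with the same sign in every file, and 503 (4.82%) were lower by as much. The genes of the rule were left out of these counts. The median over all genes tested was -0.25, with single files between -0.249 and -0.243, so that most genes took a somewhat smaller part of the UMIs in late myocytes. Sarcomere genes, here with the rule genes Acta1 and Myh3 counted in, took 7.51% of UMIs in late myocytes and 2.98% in comparison cells. The rule thus set part of this difference. Cytosolic ribosomal protein genes took 18.8% and 21.5%. With TMM factors, which place the median gene at -0.00271, 584 genes were higher and 267 lower, and with median-ratio size factors 590 and 264. A log2 ratio of a single gene below is therefore about 0.25 larger when read relative to the median gene. Of 140 called genes followed singly, 51 fell short of a log2 ratio of 1 in size with 10 in place of 1 added to CPM.

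Of 4 myosin heavy chain genes tested apart from Myh3, all 4 were higher, with a median log2 ratio of 2.52 against -0.25 over all genes. Myh1, an adult fast fibre form, was at 1859, 1825, 1835 and 1834 CPM in the 4 files of late myocytes and at 347, 345, 356 and 359 in comparison cells, a log2 ratio of 2.38 (counting interval 2.33 to 2.44). Myh8, the neonatal form, was at 271, 264, 263 and 263 CPM against 37.4, 40.6, 38.8 and 37.7, a log2 ratio of 2.75 (2.59 to 2.90). Myh7, the slow form, had a log2 ratio of 2.65 and Myh7b one of 1.81. The 4 values of a class come from repeat libraries of the same cells, so their closeness is technical. All intervals here cover counting error only.

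The other adult fast forms were close to the detection limit. Myh4 (the fastest adult form) was at 3.03 CPM and Myh2 at 1.24 CPM in late myocytes, and in thinned cells 1.02% and 0.554% of late myocytes had a UMI against 0% of 1235 dividing Myog-low cells (which allows a share of cells with a UMI of up to 0.243%). Myh1 was seen in 83.0% of late myocytes, Myh8 in 44.3% and Myh7 in 20.4%. In dividing Myog-low cells the shares were 3.83%, 0.891% and 0.405%. Myosin heavy chain genes have similar sequences, and how the authors' counting treated reads shared between them is not given in the sources used here, so their separate levels are uncertain to that extent.

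Among myosin light chains, 4 of 5 genes tested were higher. Myl4 was at 3071, 3081, 3080 and 3083 CPM in late myocytes and at 577, 567, 581 and 582 in comparison cells, a log2 ratio of 2.41. Myl1 (fast alkali light chain) had a log2 ratio of 2.09, and Mylpf (fast regulatory light chain) had 1.64 at 9832 against 3163 CPM. Myl6b was at the limit with 1.00. Mylk4, a kinase listed with them, did not pass at 0.99. Myl2 and Myl3, the ventricular and slow light chains, were at 1.15 and 0.674 CPM, and Myl7, the atrial regulatory light chain, had no UMI in 857 thinned cells, which allows a share of cells with a UMI of up to 0.350%.

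The actins parted by isoform. Of 4 actin genes tested beside Acta1, only Actc1 was higher and the cytoplasmic Actb and Actg1 were lower. Actc1 was at 4521, 4525, 4500 and 4509 CPM in late myocytes against 1732, 1727, 1745 and 1751, a log2 ratio of 1.38 (1.35 to 1.40). Actb, cytoplasmic beta-actin, was at 884, 870, 876 and 883 CPM against 2202, 2164, 2157 and 2147, a log2 ratio of -1.30 (-1.34 to -1.27). Actg1, cytoplasmic gamma-actin, had 483, 479, 482 and 491 CPM against 988, 993, 998 and 995, a log2 ratio of -1.04, and did not reach -1 with TMM factors (-0.77). Acta2, smooth muscle alpha-actin, was at 3178 against 2190 CPM, a log2 ratio of 0.54 that did not pass.

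The proximal promoters of 3 of these actins are shown because all 3 hold a CArG box, the site to which serum response factor is known to bind. Actc1 was higher and Actg1 lower in late myocytes, whereas the rule itself set the high level of Acta1. Acta2 and Actb were not examined for it. Each run is the 250 bases before the RefSeq start site of GRCm38.p6, written 5′ to 3′ on the gene's strand, with the CArG box in capitals. The window of Acta1 is chr8:123894776-123895025 (minus strand), that of Actc1 is chr2:114052876-114053125 (minus strand) and that of Actg1 is chr11:120348496-120348745 (minus strand).
Acta1: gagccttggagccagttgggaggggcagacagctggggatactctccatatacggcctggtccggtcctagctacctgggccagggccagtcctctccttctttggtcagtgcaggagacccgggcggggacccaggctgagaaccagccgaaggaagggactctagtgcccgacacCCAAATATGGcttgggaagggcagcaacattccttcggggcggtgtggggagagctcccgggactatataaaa
Actc1: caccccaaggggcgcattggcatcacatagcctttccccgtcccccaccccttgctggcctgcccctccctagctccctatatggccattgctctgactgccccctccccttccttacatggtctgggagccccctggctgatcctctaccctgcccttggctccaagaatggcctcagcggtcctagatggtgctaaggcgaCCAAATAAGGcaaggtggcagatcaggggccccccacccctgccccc
Actg1: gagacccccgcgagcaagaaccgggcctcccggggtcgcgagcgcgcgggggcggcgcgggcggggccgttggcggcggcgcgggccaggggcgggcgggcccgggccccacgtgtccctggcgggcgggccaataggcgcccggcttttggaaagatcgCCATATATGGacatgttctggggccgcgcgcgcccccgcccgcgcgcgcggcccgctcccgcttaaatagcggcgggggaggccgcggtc

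The box began 73 bases before the RefSeq start site in Acta1, 47 in Actc1 and 90 in Actg1. GENCODE places the 5′ ends of these genes elsewhere, at 123894751, 114053548 and 120348542. By its bounds the Actc1 window lies inside the gene and the Actg1 window overlaps it, so these distances depend on the annotation. The CArG box was found in 1.40% of 27025 RefSeq promoters of this length, on either strand. The corresponding windows of Myh3 (chr11:67078050-67078299, plus strand) and Myl4 (chr11:104550413-104550662, plus strand) held none. Neither the CArG box nor its absence says which factor acts there. An E-box (CANNTG, both strands), the site known for Myog and Myod1, was in 66.0% of promoters. It occurred 2 times in the window of Acta1, 1 time in those of Myh3 and Actg1, and not in those of Actc1 and Myl4. No MEF2 motif, found in 3.01% of promoters, was in any of the 5 windows. Srf itself, the serum response factor gene, was at 6.71 CPM in late myocytes and 12.7 in comparison cells, a log2 ratio of -0.84 that did not pass.

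Troponins and tropomyosins, which make the thin filament respond to calcium, were higher for 6 of 11 genes and lower for 1, with a median log2 ratio of 1.03. Tnnc2 and Tnnc1, the fast and slow troponin C genes, had log2 ratios of 2.23 and 2.04, and slow troponin I (Tnni1) had 1.71. Tnnt2, cardiac troponin T, had 1.43, Tpm2 had 1.12 and fast troponin I (Tnni2) 1.03. Tnnt3 (0.99), Tnnt1 (0.47), Tpm1 (0.51) and Tpm3 (-0.22) did not pass. The member that was lower was Tpm4, a cytoskeletal tropomyosin, at -1.01, and it did not reach -1 with TMM factors (-0.76).

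Of 26 genes of the Z-disc, titin and M-band, 15 were higher and 0 lower, with a median of 1.24. Xirp2, an actin-binding repeat protein of the intercalated and Z-disc region, was at 21.1, 24.9, 22.1 and 22.9 CPM in late myocytes and at 0.104, 0, 0.423 and 0.226 in comparison cells. The latter rest on a mean of 1.75 UMIs per file, and the log2 ratio was 4.33 (3.76 to 4.55). Myoz2 (3.30), Fhl1 (2.73), Myot (2.63), Csrp3 (2.45), Tcap (2.40) and Myom2 (2.30) followed. Of the 26 genes, 23 had a mean of at least 25 UMIs per file in both classes. Xirp2 and Fhl1 reached the minimum of 50 UMIs per file through late myocytes, and the order depends on the pseudocount. With 10 in place of 1 added to CPM, Xirp2 (1.68), Fhl1 (1.27) and Myot (1.19) still passed but were below Tcap (2.19). Titin itself did not pass: Ttn was at 7752 against 4677 CPM, a log2 ratio of 0.73. Nebulin (Neb) had 0.41, Actn3 0.06 and Mybpc1 -0.31, while Actn2, the other muscle alpha-actinin, had 1.57. The list thus held genes whose level differed more than 4-fold and others, including the 2 giant filament proteins, that differed less than 2-fold.

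Factors that help assemble or maintain filaments were higher for 12 of 19 genes, with a median of 1.23. They included Cavin4 (1.96), the small heat shock proteins Hspb3 (1.73), Hspb2 (1.48) and Cryab (1.43), the leiomodins Lmod3 (1.47) and Lmod2 (1.40), and the myosin chaperone Unc45b (1.31). Cryab was at 2841, 2857, 2861 and 2863 CPM against 1037, 1054, 1063 and 1075. Of the ubiquitin ligases of muscle wasting, Trim63 was higher at 1.38 and Fbxo32 had -0.93, short of the limit.

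Genes for calcium release and membrane excitation were higher for 8 of 26, with a median of 0.74 and none lower. Casq2, a calcium-binding protein of the sarcoplasmic reticulum, was at 282, 273, 283 and 280 CPM in late myocytes and at 27.4, 29.4, 27.4 and 29.9 in comparison cells, a log2 ratio of 3.25 (3.08 to 3.43). Casq1, the form of adult fast fibres, was at 12.4 against 1.22 CPM, a log2 ratio of 2.60. Cav3 (2.52), a membrane scaffold, and Cacna1s (2.23), the voltage sensor, were also higher, as were Scn4a (1.34), Sypl2 (1.20), Jph1 (1.07) and Hrc (1.05). When 10 in place of 1 was added to CPM, Casq1 (0.995), Hrc (0.99), Scn4a (0.40) and Sypl2 (0.34) did not pass. The calcium release channel Ryr1 was at 244 against 205 CPM, a log2 ratio of 0.25. Its relative Ryr3 had -0.50, the calcium pump Atp2a1 0.55 and parvalbumin (Pvalb) -0.38.

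**Figure D2:**
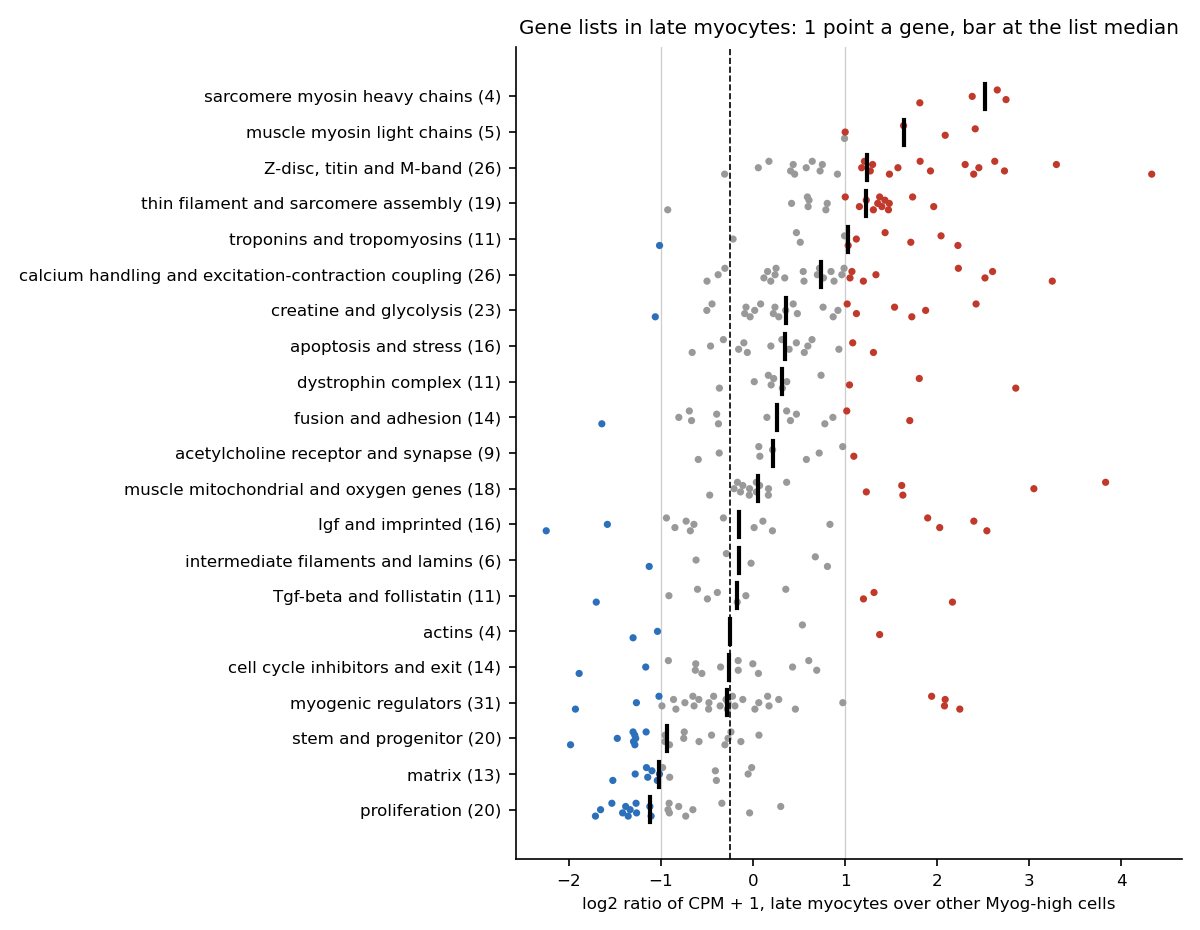
Log2 ratio of CPM + 1, late myocytes over comparison cells (horizontal axis), for each tested gene of 21 gene lists (rows, number of genes in brackets). Points are genes, red at 1 or more, blue at -1 or less and grey between, the black bars are list medians, and the dashed line is the median of -0.25 over 10431 genes. The myosin heavy chain list has the highest median (2.52) and the proliferation list the lowest (-1.11).

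Of 6 intermediate filament and lamin genes, Lmnb1 (lamin B1) was lower at -1.13, though not with TMM factors, and desmin (Des) had 0.68, short of the limit. The dystrophin complex ties the cytoskeleton to the matrix. Dmd (dystrophin) was at 1324, 1340, 1330 and 1319 CPM against 379, 376, 379 and 382, a log2 ratio of 1.81 (1.75 to 1.86). Sgcd (delta-sarcoglycan) had 2.85, whereas Sgca (0.32), Sgcb (0.01) and Dag1 (0.17) did not pass. Of 9 genes of the acetylcholine receptor and synapse, only Ache was higher, at 1.10, and on 6.55 against 2.52 CPM. Ache had 0.40 and did not pass when 10 in place of 1 was added to CPM. The fetal receptor subunit Chrng was at 217 against 110 CPM, a log2 ratio of 0.97, and its adult counterpart Chrne was at 0.156 CPM.

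Fusion genes were already on in the comparison cells. Mymk (myomaker), needed for fusion, had a UMI in 99.5% of thinned late myocytes and 93.1% of comparison cells, against 19.1% of dividing Myog-low cells, and its log2 ratio was 0.87. Mymx (myomerger) was in 76.6% and 59.5% of cells, against 2.94%, with a log2 ratio of 0.78. Neither passed. Of 14 genes for fusion and adhesion, 2 were higher, Dysf (dysferlin, membrane repair) at 1.70 and Jam2 at 1.02, and 1 was lower, Kirrel at -1.64.

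Among 31 myogenic regulators, 4 were higher and 3 lower, with a median of -0.28, near that of all genes. Mef2c was at 1530, 1518, 1532 and 1499 CPM in late myocytes against 391, 391, 400 and 399, a log2 ratio of 1.94 (1.89 to 1.99). Its relatives Mef2a (0.02), Mef2d (0.06) and Mef2b (-0.29) did not pass. Hdac9 (2.25), a repressor that binds Mef2 proteins, and Ankrd2 (2.09), a stretch-responsive ankyrin repeat protein, were higher as well. Eya2 (-1.93), Prox1 (-1.27) and Id2 (-1.02) were lower, and Id2 did not reach -1 with TMM factors (-0.76). With 10 in place of 1 added to CPM, Hdac9 (0.99), Ankrd2 (0.74), Eya2 (-0.58) and Id2 (-0.91) did not pass. Myod1, whose reporter defined the sort, was at 519 against 698 CPM, a log2 ratio of -0.43, and its median per cell was 495 against 656 CPM.

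Myf6 (Mrf4), the regulator of maturing fibres, was at 21.9, 19.6, 20.8 and 20.4 CPM against 4.36, 4.02, 4.02 and 4.08, a log2 ratio of 2.08 (1.66 to 2.50). A Myf6 UMI was seen in any file in 215 of the 873 late myocytes, and after thinning in 7.18%, against 1.59% of comparison cells and 1.68% of dividing Myog-low cells. Myf5 lies beside Myf6, at chr10:107482908-107486134 and chr10:107492853-107494737 on the minus strand of GRCm38, and 172 late myocytes had a Myf5 UMI, 83 of them with both. How the counting separated neighbouring genes is not given in the sources used here, so the Myf5 and Myf6 values are uncertain.

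Of 20 stem and progenitor genes, 8 were lower, 0 higher and 12 did not pass, with a median of -0.93. Mgp, a matrix protein, was at 31.2, 30.8, 30.4 and 31.2 CPM against 120, 130, 123 and 127, a log2 ratio of -1.98. Fgfr4 (-1.47), Heyl (-1.30), Sdc3 (-1.30), Notch3 (-1.28), Spp1 (-1.27) and Notch2 (-1.16) were lower too, the last not with TMM factors (-0.91). When 10 in place of 1 was added to CPM, Mgp (-1.72), Fgfr4 (-1.24) and Spp1 (-1.10) stayed at -1 or less. Sdc3 (-0.95), Notch2 (-0.72), Notch3 (-0.64) and Heyl (-0.36) did not. Pax7, the stem cell factor, was at 3.52 against 7.83 CPM, a log2 ratio of -0.96 that did not pass, and 1.14% of thinned late myocytes had a UMI, against 3.24% of comparison cells and 40.9% of dividing Myog-low cells. Matrix genes were lower for 7 of 13 (median -1.02), among them Col6a1 (-1.52), Col3a1 (-1.28) and Fn1 (-1.14). With TMM factors Col6a1 and Col3a1 stayed at -1 or less and the other 5 did not. These were Fn1 at -0.91, Col5a1 at -0.91, Col1a2 at -0.86, Col4a2 at -0.79 and Lamb1 at -0.79. Adding 10 in place of 1 to CPM left only Col3a1 (-1.07) of the 7 at -1 or less, and Col6a1 had -0.64.

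Cell cycle genes were lower within cells that the rule had already held to little Mki67 and Top2a. Of 20 other proliferation genes, 11 were lower and 0 higher, with a median of -1.11. They included Ccna2 (-1.71), Mcm3 (-1.66), Ccnb2 (-1.53) and Birc5 (-1.42). With TMM factors Cdc20 (-0.90) and Tyms (-0.87) did not reach -1. With 10 in place of 1 added to CPM, only Ccnb2 (-1.05), Stmn1 (-1.20) and Ube2c (-1.02) of the 11 stayed at -1 or less. Ccna2 then had -0.69, Mcm3 -0.70 and Birc5 -0.93. Because the rule limits 2 genes of the same process in both classes, this is a description of what remained below that limit. Of 14 cell cycle inhibitors and related genes, Ccnd1 (cyclin D1) was at 13.1, 11.9, 12.1 and 11.8 CPM against 47.9, 47.3, 48.5 and 48.1, a log2 ratio of -1.89, and Btg2 had -1.16 (-0.91 with TMM factors). The inhibitor Cdkn1a (p21) was at 2967 against 1949 CPM, a log2 ratio of 0.61 that did not pass. Cdkn1c (p57) was at 136 against 259 CPM, a log2 ratio of -0.92.

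Creatine and glycolysis genes were higher for 6 of 23 and lower for 1, with a median of 0.35. Ckm, muscle creatine kinase, was at 177, 183, 182 and 176 CPM against a mean of 32.7, a log2 ratio of 2.42 (2.25 to 2.60). Ckb, the brain-type creatine kinase, was higher too, at 452 against 222 CPM, a log2 ratio of 1.02. Pfkm, the muscle phosphofructokinase, had 1.54, whereas Gapdh had -0.03, Pkm -0.08 and Eno1 0.08. Pgam2 and Eno3, the muscle forms of 2 other glycolytic enzymes, had 0.87 and 0.92 and did not pass. Of 18 mitochondrial and oxygen-related genes, 5 were higher: Fabp3 (3.83), Cox6a2 (3.05), Mb (myoglobin, 1.63), Cox8b (1.62) and Ppargc1a (1.23). The common subunits Cox6a1 (-0.17) and Cox8a (-0.21) did not pass, nor did Cox4i1 (-0.04) or Atp5b (-0.04), and the list's median was 0.05.

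Of 16 Igf and imprinted genes, 4 were higher and 2 lower, with a median of -0.15, and of 11 Tgf-beta and follistatin genes 3 were higher and 1 lower, with a median of -0.17. Igfbp5, a binding protein of insulin-like growth factors, was at 8.33 to 9.01 CPM over the files against 42.5 to 47.0, a log2 ratio of -2.25, and Igfbp3 had -1.58. Igf2 (0.11) and H19 (0.01) did not pass. The neighbouring noncoding genes Rian (2.54), Meg3 (2.40) and Mirg (2.03) of the imprinted Dlk1-Dio3 region were higher, as was Dlk1 at 1.90, on under 5 CPM. Mstn (myostatin, an inhibitor of muscle growth) was at a mean of 6.76 CPM, at most 8.15 in a file, against 0.720, a log2 ratio of 2.17 (1.55 to 2.65). Its antagonist Fst (follistatin) was higher at 1.31, and Fstl1 was lower at -1.70. Of 16 apoptosis and stress genes, Hspa1b (1.31) and Hspa1a (1.08) were higher on about 5 CPM each. Reads of these near-identical genes cannot be told apart with certainty. Adding 10 in place of 1 to CPM left Dlk1 (0.46), Mstn (0.64), Fstl1 (-0.68), Hspa1b (0.40) and Hspa1a (0.33) short of the limit.

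Outside the lists, the 10 genes with the highest log2 ratios included Fn3k (3.96), a kinase acting on glycated proteins, Capn3 (3.55), the muscle calpain, and BC051019 (3.52). Fgf21, a hormone-like growth factor, was at 40.4, 36.6, 33.8 and 35.6 CPM in late myocytes against 2.90, 2.68, 2.01 and 2.15, a log2 ratio of 3.46. Folr1 (3.26), Frem2 (3.21), Rxrg (3.16) and Prkg1 (3.13) followed. Fgf6 (3.05) and Rnf144b (3.04) complete the 10, with 2.5 UMIs per file in comparison cells and counting intervals of 2.45 to 3.35 for both genes. They reached the count minimum through their UMIs in late myocytes, and the order of the 10 depends on the pseudocount: with 10 in place of 1, Fgf6 and Rnf144b had 0.92 each and did not pass, while Prkg1 (2.44) and Frem2 (2.03) were highest of the 10. The 10 lowest were Sox8 (-2.57), Ctnna2 (-2.56), St3gal4 (-2.56), Mest (-2.53), Adgra1 (-2.36), Arl4c (-2.29), Robo1 (-2.25), Pdgfrl (-2.16), Dpyd (-2.16) and Dock1 (-2.15). Ctnna2, with 4.75 UMIs per file in late myocytes, reached the count minimum through comparison cells. Sox8, Adgra1, Arl4c, Pdgfrl and Dock1 also had under 50 UMIs per file in late myocytes. With the pseudocount of 10, Ctnna2 had -0.73 and did not pass, while Mest (-2.28) and Robo1 (-1.75) were lowest of the 10. Mest, an imprinted gene, was at 35.5, 37.5, 34.8 and 38.9 CPM in late myocytes against 214, 219, 219 and 212.

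Late myocytes were next divided by their level of Acta1 and Myh3, with 456 cells of 5000 to 10000 CPM, 350 of 10000 to 20000 and 67 of 20000 or more. The comparison cells fell into 302 under 1000 and 584 of 1000 to 5000. The sarcomere share of UMIs was 1.82%, 3.51%, 5.73%, 8.76% and 12.4% over the 5 ranges. It includes Acta1 and Myh3, which define the ranges, so part of its rise was set in advance. The ribosomal protein share was 22.4%, 21.1%, 19.7%, 18.1% and 16.8%. Median depth was 9285, 10575, 11805, 12362 and 12725 UMIs, so depth moved with the ranges, and its part in these profiles was not tested.

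Most genes of several lists were highest in the last range, and not only contractile ones. This held for 4 of 4 myosin heavy chain genes, 9 of 11 troponin and tropomyosin genes and 17 of 26 Z-disc genes, but for 1 of 4 actins. It also held for 18 of 26 calcium genes, 17 of 23 creatine and glycolysis genes and 11 of 18 mitochondrial and oxygen-related genes. Of all 10431 genes, 15.8% were highest in the last range and 56.6% in the first. The gap between early and late members was wide for some. Fabp3 (heart fatty acid-binding protein) was at 3.89, 8.32, 24.6, 139 and 522 CPM over the 5 ranges. Casq1 was at 2.02, 0.852, 2.20, 10.8 and 83.7 CPM, and Fhl1 at 2.29, 1.98, 6.49, 22.3 and 83.1 CPM. For these genes the largest step lay inside the late myocytes, between those below and above 10000 or 20000 CPM of the rule genes.

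Other genes were highest in the third or the fourth range and lower in the last. Myog was at 3248, 4211, 4616, 4291 and 3115 CPM over the ranges, in cells that the rule held to at least 1500 CPM of it. Mef2a was at 989, 1312, 1462, 1061 and 608 CPM, and Tead4 at 91.8, 144, 193, 167 and 110. The fusion gene Mymx reached 579 CPM at 5000 to 10000 and was at 451 (counting interval 409 to 497) in the last range, whereas Mymk went on from 1425 to 1903 CPM. Sntb1, a syntrophin, was highest at 921 CPM in the same middle range and at 565 in the last. Xirp1 reached 151 CPM in the fourth range and 108 (88.4 to 132) in the last, unlike its relative Xirp2, which went from 6.97 to 26.4 and 103 CPM inside the class.

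Myod1 and Actb were lower in each range than in the one before. Myod1 was at 752, 673, 598, 454 and 349 CPM and Actb at 2639, 1953, 1187, 611 and 284. Myf6 was at 2.96, 4.64, 9.74, 20.9 and 87.3 CPM, and 41 of the 67 cells in the last range had a Myf6 UMI. Myf5, which is known from stem cells and myoblasts, was at 16.2, 9.85, 6.75, 8.42 and 33.3 CPM (22.4 to 47.1 in the last range), and 28 of those 67 cells had a Myf5 UMI. Pax7 was at 10.8, 6.46, 3.38, 3.44 and 4.86 CPM, and its counting interval in the last range (1.47 to 11.9) includes all of these values. The part of doublets in this was not tested.

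**Figure D3:**
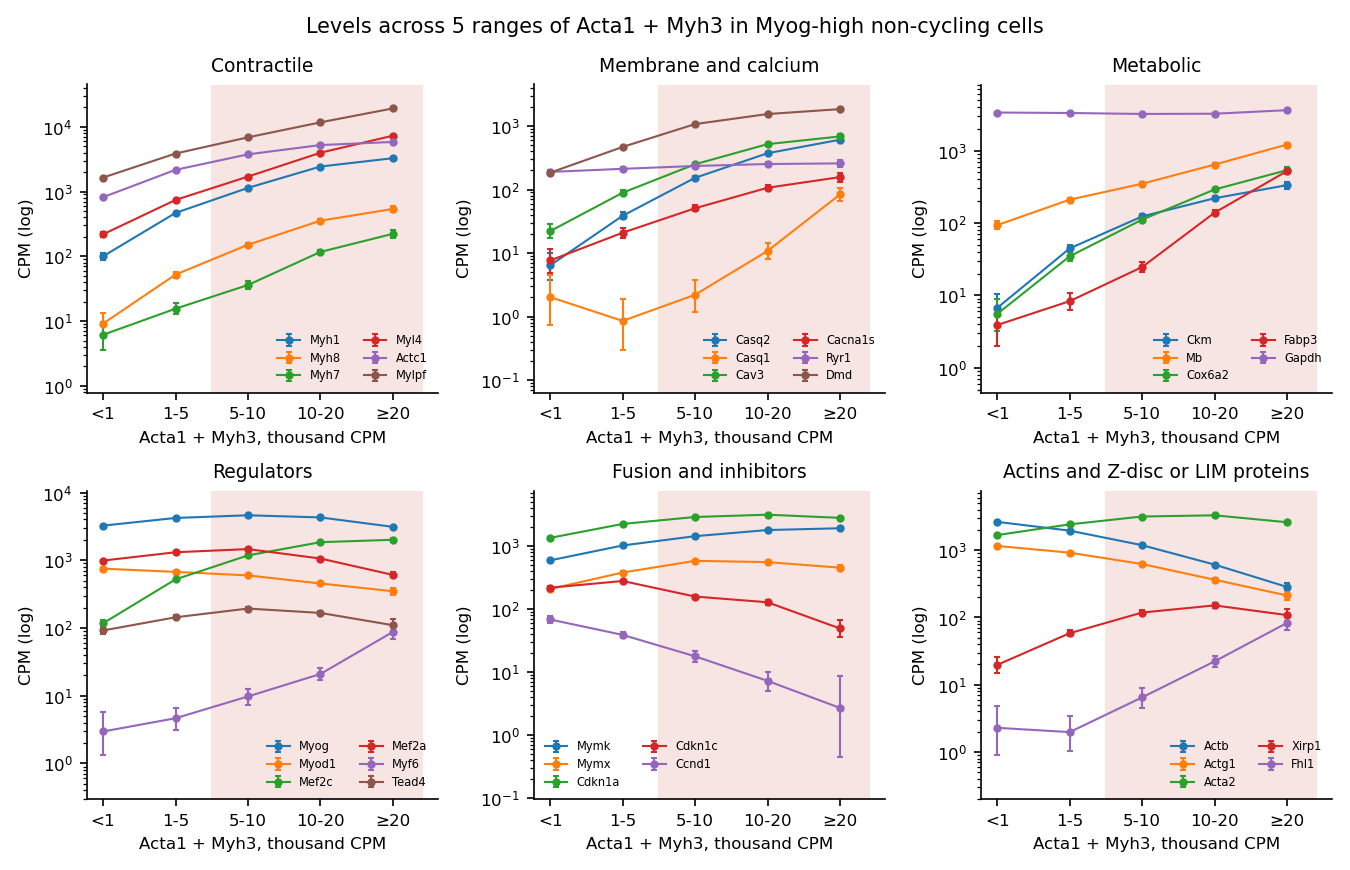
Levels (vertical axes, CPM, log scale) of 33 genes in 6 groups over 5 ranges of Acta1 and Myh3 together (horizontal axes, CPM in units of 1000). Points are means over the 4 files of UMIs summed over cells, bars are exact 95% Poisson intervals for the count of 1 file, and the shaded ranges are the late myocytes. Fabp3, Casq1 and Myf6 take their largest step inside the shaded ranges, Myog, Mef2a and Mymx turn down there, and Ccnd1 and Actb run downwards throughout.

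Within the late myocytes, the genes whose level went most closely with Acta1 and Myh3 were found by the Spearman correlation over the 873 cells, with the rule genes read in files 1 and 2 and the other gene in files 3 and 4. Of 1851 genes with a mean of at least 1 UMI per cell and file, Mylpf (0.70), Cryab (0.67), Myl4 (0.65), Tnnc1 (0.65) and Tnni1 (0.64) were highest, followed by Tpm2, Casq2, Myl1, Tnnt3 and Eno3. The lowest were Actb (-0.54), Adam12 (-0.47), Hmgb1 (-0.47), Ppp1r14b (-0.47) and Npm1 (-0.46), followed by Rpl12, Ptms, Actg1, Rpl32 and Rpl13a. The same score had a correlation of 0.09 with total UMIs, -0.01 with the mitochondrial share, 0.16 with Malat1 and -0.22 with Myog. The rule set lower limits on Malat1 and Myog. The correlations named here are read within the chosen cells. These are descriptions over cells that share 1 culture and its libraries, and CPM values of a cell share a total.

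Members differed from each other far more in some genes than in others. The coefficient of variation (CV) of CPM between cells was taken from the covariance of pairs of files, which leaves out counting error not shared by files. Molecules read in several files add to the CV, and their part was not measured. The median CV over 1851 genes was 47.0% in late myocytes and 48.4% in comparison cells. In late myocytes the 6 pairs of files gave 46.7% to 47.3%. The highest were Cdkn1c (360%), Ctrb1 (286%), Rian (283%), Fabp3 (269%), Prkg1 (254%), Meg3 (252%), Sln (250%), Car3 (237%), Myh7 (234%) and AY036118 (213%).

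The concentration of these transcripts in few cells differed between genes. The 88 members with the most Cdkn1c held 89.3% of all its CPM, and 638 of 873 had no Cdkn1c UMI in any file while the highest had 5160 CPM. The 88 highest members held 82.3% of Rian, 77.3% of Meg3, 74.6% of Ctrb1 (a pancreatic protease gene) and 71.8% of Fabp3. Car3 was less concentrated, with 64.2% in its 88 highest members and none in 327 cells, and AY036118 had 58.0% there and was at 0 in 119 cells. The 88 highest members for each held 17.1% of Mymk, 20.6% of Ttn and 22.0% of Mylpf. After thinning, 14.2% of late myocytes had a Cdkn1c UMI in a file, against 18.7% of comparison cells and 3.20% of dividing Myog-low cells. The Fabp3 share was 21.3% in late myocytes and 2.53% in comparison cells.

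**Figure D4:**
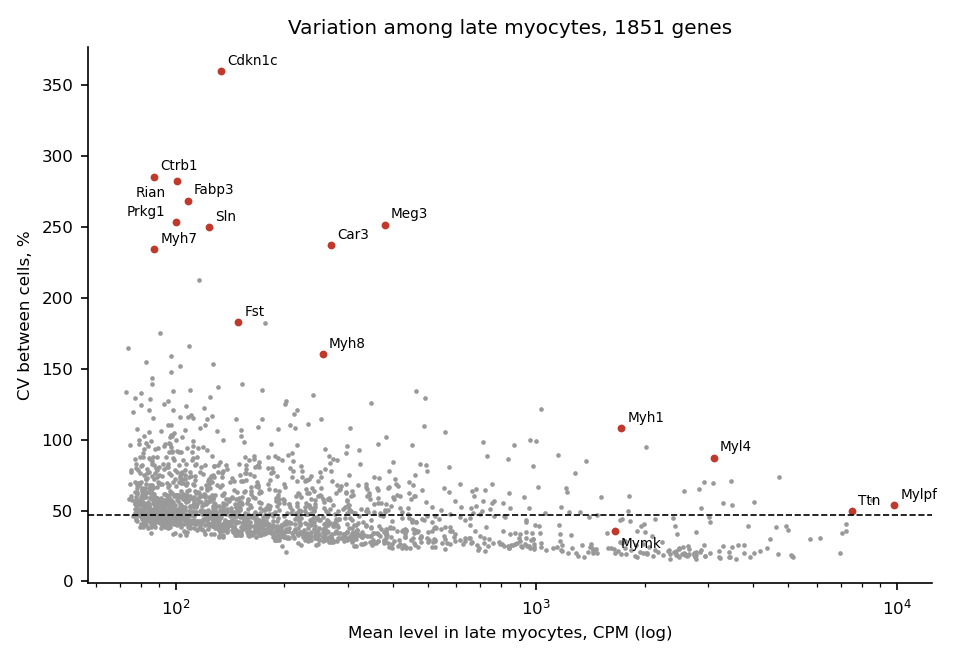
Coefficient of variation between the 873 late myocytes (vertical axis, %) against the mean level (horizontal axis, CPM, log scale), 1 point for each of 1851 genes, with 16 genes in red and named. The dashed line is the median of 47.0%. Cdkn1c stands highest at 360%, and Mymk, Ttn and Mylpf lie close to the median despite their high levels.

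The variable genes did not vary together as 1 group. Across the 873 cells, Meg3 and Rian had a Spearman correlation of 0.82, Rian and Mirg 0.73 and Meg3 and Mirg 0.68, each gene read in a different pair of files and both ways averaged, while the same gene between file pairs gave 0.88 for Meg3. Dlk1, in the same imprinted region, had 0.11 with Meg3. Casq2 went with Myh1 (0.53), Myh8 (0.51), Fabp3 (0.51) and Prkg1 (0.50), and against Actb (-0.58). Casq2 (0.61), Fabp3 (0.51), Myh1 (0.49), Prkg1 (0.41) and Myh8 (0.37) also went with Acta1 and Myh3 together, and Actb (-0.54) against them. Cdkn1c (-0.07) and Ctrb1 (-0.03) did neither. Whether the Casq2 group varies apart from the level of the rule genes was not tested. Cdkn1c had between -0.11 and 0.15 with each of the other 21 genes examined, although it was measured repeatably (0.84 between file pairs). Ctrb1 had between -0.11 and 0.10, at a repeatability of 0.80. Molecules read in both file pairs add to these values of a gene with itself. Myh7 had 0.35 with Myh1 and 0.25 with Myh8.

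**Figure D5:**
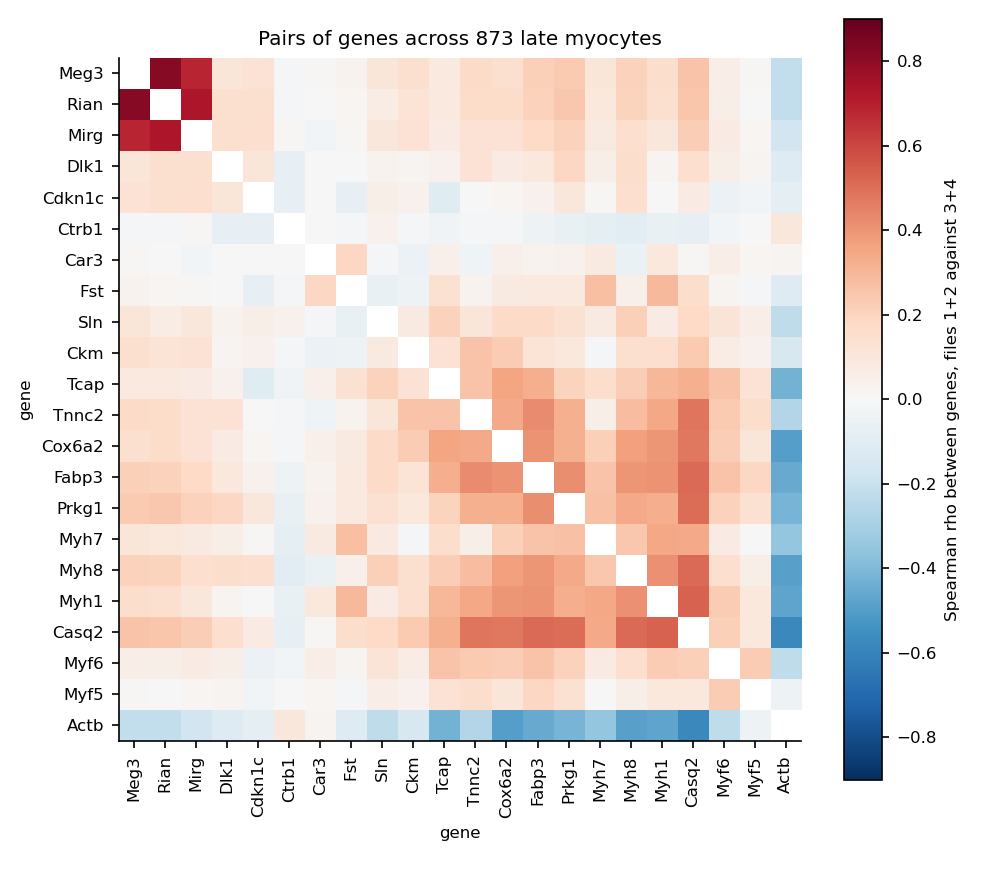
Spearman correlation across 873 late myocytes for each pair of 22 genes (both axes), with 1 gene read in files 1 and 2 and the other in files 3 and 4. Red is positive and blue negative on the scale at the right, and the diagonal is left blank. Meg3, Rian and Mirg form 1 block (0.68 to 0.82), Casq2 and its neighbours another, Actb is negative with that block, and Cdkn1c and Ctrb1 are pale throughout.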

How the data were processed

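Single-cell libraries were made with the Chromium Next GEM 3' v3.1 kit, per the labels' protocols, which counts the 3' ends of polyadenylated RNA, so that levels follow molecules and not gene length. The authors deposited 4 matrices of UMI counts, not normalized, with genes in rows and barcodes in columns. Per the file headers they come from Cell Ranger 7.1.0, whereas the submitters' processing notes list Cell Ranger 3.1.0 and the builds mm10 and GRCm39. The build, annotation and treatment of intronic reads that apply to these files are therefore uncertain, and intronic reads raise long genes. Of the identifiers, 32158 (99.6%) were found in GENCODE M21, which gives the GRCm38 coordinates. Promoter sequences of 5 genes come from RefSeq on GRCm38.p6, and Acta2 and Actb were not examined.

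A barcode was kept if every file listed it and if, averaged over files, it showed 1000 or more genes and a mitochondrial share below 10%. Classes were set on UMIs summed over the files, and levels were computed per file and averaged. With n = 1 there is no p-value. Intervals are exact 95% Poisson, Clopper-Pearson or conditional binomial intervals at the mean count of 1 file, and a share of 0 is given the limit of 3 counts, for counting error only, since UMIs are molecules but cells share 1 source. A gene was called at a log2 ratio of 1 on CPM + 1 with the same sign in all files. Shares of cells come from cells thinned to 5000 UMIs per file, which left out 16 late myocytes. The ratio and CV code was tested on simulated data, in which each file was drawn separately and shared no molecules with the others. Members and gene lists were chosen with earlier results of these data known. Genes named are the markers, list members by role, and outside the lists the 10 highest and 10 lowest ratios. Alternatives covered thresholds, cell filters, files, depth, doublets, scaling, pseudocount and count minimum. Python 3.11.15, numpy 2.4.6, scipy 1.17.1, pandas 2.3.3 and scanpy 1.11.5 were used. One result of the dystrophin complex list, and the count that includes it, is not reported here.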

Additional observations from a re-analysis of the deposited data

Results flagged for a closer look

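In 45 values compared over the 4 files, 4 had 1 file apart from the other 3 by more than the 95% critical value of Dixon's gap, and chance gives this in about 5% of groups of 4. Myf5 in late myocytes was at 8.68 CPM in replicate 1, where the median of the others was 9.89. Mymx was at 545.6 CPM in replicate 4 against 562.0. Ryr1 was at 251.2 CPM in replicate 4 against 241.4. Myh8 was at 271.3 CPM in replicate 1 against 263.3. The files hold the same cells.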

How the results depend on the processing

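No paired analysis was possible because the series has 1 group. With 1 sample of cells, nothing was tested, and depth limits genes of a few UMIs. The share of late myocytes (15.9%) was 22.4% and 7.61% with Acta1 and Myh3 thresholds of 2500 and 10000 CPM, 13.9% with a Myog threshold of 2500 CPM and 13.8% with an Mki67 and Top2a limit of 25 CPM. Higher genes (419) numbered 175 with a pseudocount of 10 and 267 with a count minimum of 200. Lower genes (503) numbered 317 with the Myog threshold of 2500 CPM, 251 against comparison cells of 1000 to 5000 CPM, 264 with median-ratio size factors, 267 with TMM factors, 102 with the pseudocount of 10 and 255 with the count minimum of 200. The median log2 ratio (-0.25) was 0.00143 with median-ratio size factors and -0.00271 with TMM factors, scalings that by construction place the median gene near 0. It was -0.23 and -0.27 with the Acta1 and Myh3 thresholds of 2500 and 10000 CPM, -0.26 and -0.23 with Myog thresholds of 1000 and 2500 CPM, and -0.24 with the limit of 25 CPM. It was -0.24 with members chosen on replicates 1 and 2 and read in 3 and 4, and -0.24 in thinned cells. It was -0.21 against cells of 1000 to 5000 CPM, -0.18 with totals without sarcomere, Malat1 and mitochondrial genes, -0.26 as CPM averaged over cells, -0.16 with the pseudocount of 10, and -0.16 and -0.23 with count minimums of 1 and 200. The median CV (47.0%) was 47.2% with the threshold of 2500 CPM, 46.2% with the Myog threshold of 2500 CPM and 46.5% in cells of 2000 genes or more. Leaving out each replicate gave 410 to 413 higher genes, 500 to 522 lower genes and a median of -0.254 to -0.247. Over 340 single genes and 21 alternatives, no called gene changed sign, 65 of 140 called genes came under a log2 ratio of 1 in at least 1 alternative, and 51 of 200 others changed sign. Apart from the construction of each alternative, the cause was not tested.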
